A study of Homo sapiens with 6 samples.

Results

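The U-box ubiquitin ligases are a small family of human enzymes to which STUB1, the gene disrupted in these cells, belongs. The 7 family members measured here, STUB1, UBE4A, UBE4B, PRPF19, PPIL2, UBOX5 and WDSUB1, were taken by symbol through the Ensembl identifiers of the deposited table. JMJD8, which is no ligase, was added because it overlaps the 3' end of STUB1. All 8 genes were among the 20014 in the table. All 8 also passed the filter on low values, a mean of at least 1 FPKM over the 6 libraries, which left 11262 genes to test. FPKM stands for fragments per kilobase of transcript, scaled to the mapped fragments of a library. Levels of different genes can be set side by side on this scale, but the sum over all genes differed between libraries (410756 to 447332 FPKM), as did the bearing of gene length given below.

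A U-box is a protein fold related to the RING finger that keeps its shape without zinc and docks a ubiquitin-conjugating (E2) enzyme. STUB1, also known as CHIP, carries a tetratricopeptide domain that grips the tails of HSP70 and HSP90, and its U-box then directs ubiquitin onto the protein the chaperone holds. The ligase thereby links protein folding to degradation by the proteasome.

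The cells were HaCaT, a line of immortalized human keratinocytes, and both groups were labelled as having no special treatment. The STUB1 knockout group (3 libraries) received a lentiviral lentiCRISPR vector with a guide against STUB1, and the control group (3 libraries) a control guide, sgControl, in the same vector. The genotype label of the control group is WT. Infection, selection, sorting into wells and outgrowth of colonies were thus shared, and knockout was judged by an immunoblot for STUB1. The labels give neither the number of clones in a group nor whether its libraries are separate cultures, so every p-value here reflects library-to-library spread that could be purely technical. The guide's sequence and its position in STUB1 are not analysed here.

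Of 10 keratinocyte markers 9 were above the filter, among them TP63, a transcription factor of stratified epithelium, at 53.9 to 66.0 FPKM. KRT14, a basal keratin, was near 0 in every library (0.162 to 0.328 FPKM), while its partner KRT5 stood at 136 to 152 FPKM in the controls and 248 to 265 in the knockouts. Whether reads that KRT14 shares with similar keratins were lost in the counting was not tested, so this value does not show KRT14 to be off. Of the 9, 4 rose and 1 fell by limma (55.6% called). Over all tested genes 22.9% were called, 9.58% higher and 13.3% lower. KRT6A (0.90 on the log2 scale), KRT5 (0.82), COL17A1 (0.72) and LAMB3 (0.37) were higher and PERP (-0.49) lower in the knockout. PERP lies on chromosome 6, with 84.4% of its neighbours within 10 Mb lower and a median of -0.53. The part of these marker changes in the members' values was not tested. LAMB3 did not pass without any 1 knockout library or control 1 (limma, adjusted p between 0.0503 and 0.0889), nor PERP without knockout 2 (0.0651). The 6 fibroblast markers summed to 0.440 to 0.562 FPKM, with DCN at 0 throughout. The 6 melanocyte markers summed to 6.46 to 7.66 FPKM with TYR at 0, and among 6 leukocyte markers only CD68 was above the filter. The 3 of these above the filter, MITF, PMEL and CD68, did not pass (limma, adjusted p = 0.830, 0.919 and 0.211).

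Library control 3 stood apart from the others. Over tested genes it correlated with controls 1 and 2 at 0.988 and 0.986, whereas those 2 correlated with each other at 0.998 and the knockout libraries at 0.996 to 0.999. Its log2 values, relative to the average library, changed by -0.10 per doubling of exonic length, whereas the other 5 libraries gave -0.01 to 0.03. The same split ran through the members: STUB1, JMJD8 and WDSUB1, with 2135 to 2627 exonic bases, were highest among controls in control 3. The other 5 members, with 2739 to 9128 exonic bases, were lowest there.

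STUB1 was the only U-box ligase whose mRNA passed the threshold in the main limma fit. STUB1 (ENSG00000103266, plus strand of chromosome 16, 680224 to 682870 on GRCh38) measured 37.8, 41.9 and 52.7 FPKM in the controls and 21.6, 24.7 and 23.2 FPKM in the knockouts. Every knockout library lay below every control library, and the knockouts were closer to each other than the controls were. The means were 44.1 ± 7.67 and 23.2 ± 1.55 FPKM (SD, n = 3 each), so 52.5% of the control level remained. On the log2(FPKM + 1) scale the change was -0.89 (SE 0.116, 95% interval -1.15 to -0.63; limma, Benjamini-Hochberg adjusted p = 0.00125). Of the 11262 tested genes, 31 had a more negative value. An exact two-sided permutation of the libraries gave p = 0.1, and no gene can go lower with 3 against 3. Without control 3 the value was -0.76 (limma, adjusted p = 6.93e-07). In bulk RNA of this kind, fewer cells with a transcript and less of it per cell cannot be told apart, and these values are levels of mRNA, not of protein.

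Of the 7 U-box ligases 0 rose, 1 fell and 6 did not pass. Over all tested genes 22.9% passed, 9.58% higher and 13.3% lower in the knockout. The median log2 value of the 7 was 0.04, against -0.01 over all tested genes. Knockout and control values did not overlap for 3 of the 7, STUB1, UBE4A and WDSUB1, all lower in the knockout, whereas 45.6% of all tested genes had no overlap. Both shares are near the background or below it, so neither sets the family apart.

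**Figure D1:**
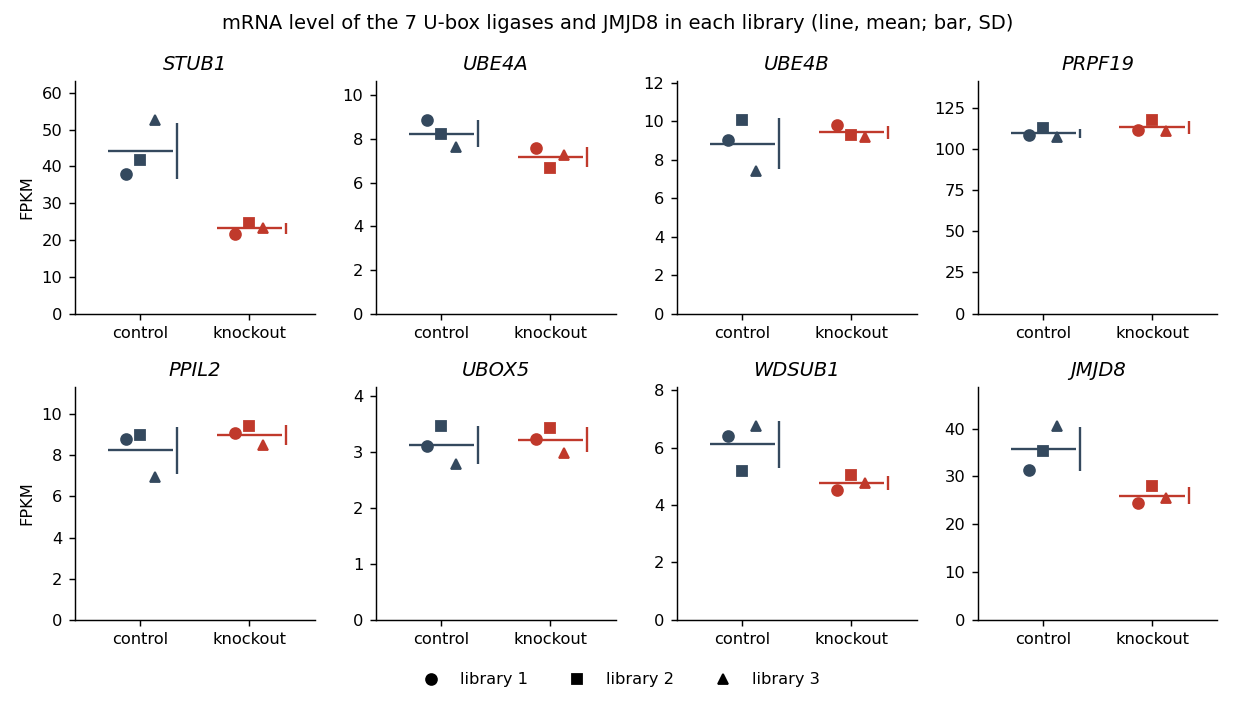
FPKM of each U-box ligase and of JMJD8 in the 6 libraries (vertical axes start at 0 and differ between panels; points are libraries, lines group means, bars SD). STUB1 and JMJD8 separate the groups widely, UBE4A and WDSUB1 by a small step, and the groups of the other 4 genes overlap.

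UBE4A and UBE4B are the human relatives of yeast Ufd2, known as E4 enzymes because they lengthen ubiquitin chains begun by other ligases. UBE4A (plus strand of chromosome 11, 118359585 to 118399211) measured 8.88, 8.22 and 7.62 FPKM in the controls and 7.60, 6.69 and 7.28 FPKM in the knockouts. The groups did not overlap, but only the small step between knockout 1 and control 3 kept them apart. The log2 value of -0.17 (95% interval -0.36 to 0.01) did not pass (limma, adjusted p = 0.152). It passed without control 3 (-0.22, adjusted p = 0.0240) and when limma's array weights gave each library its own weight (-0.23, adjusted p = 0.000847). An antisense transcript, AP001267.1, covers 1967 exonic bases of UBE4A, 29.9% of them.

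UBE4B (plus strand of chromosome 1, 10032832 to 10181239) measured 9.03, 10.1 and 7.43 FPKM in the controls and 9.80, 9.31 and 9.17 FPKM in the knockouts. All knockouts fell inside the range of the controls. The log2 value was 0.09 (95% interval -0.14 to 0.32; limma, adjusted p = 0.540), and without control 3 it was -0.016. The interval leaves room for a change of up to 0.32 log2 units, so these data do not show UBE4B to be the same in both groups.

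PRPF19 and PPIL2 serve the spliceosome. PRPF19 is the core of the Prp19 complex, which stabilises the spliceosome during its activation, and was the most abundant of these ligases. It (minus strand of chromosome 11, 60890730 to 60906588) measured 109, 113 and 107 FPKM in the controls and 111, 118 and 111 FPKM in the knockouts. The groups overlapped, and the log2 value was 0.05 with the narrowest interval among the 8 genes (-0.11 to 0.20; limma, adjusted p = 0.653). Between libraries of the same number the knockout was the higher in 3 of 3 pairs, and with the block PRPF19 did not pass either (limma, adjusted p = 0.687).

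PPIL2 joins a U-box to a cyclophilin domain (plus strand of chromosome 22, 21666009 to 21700015). It measured 8.78, 8.997 and 6.92 FPKM in the controls and 9.10, 9.43 and 8.48 FPKM in the knockouts. Control 3 was the lowest library, and the remaining controls lay among the knockouts. The log2 value was 0.12 (95% interval -0.10 to 0.35; limma, adjusted p = 0.398), and 0.016 without control 3. Here too the knockout was the higher in 3 of 3 same-numbered pairs, with no call under the block (limma, adjusted p = 0.295). PPIL2 shares 2472 exonic bases, 32.2% of its own, with YPEL1 on the opposite strand. YPEL1 was low, at 1.52 to 2.49 FPKM, and did not pass either (log2 value -0.16; limma, adjusted p = 0.323).

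UBOX5 was the least abundant member (minus strand of chromosome 20, 3107573 to 3160196). It measured 3.11, 3.46 and 2.78 FPKM in the controls and 3.24, 3.42 and 2.98 FPKM in the knockouts. All knockouts fell inside the range of the controls, and the log2 value was 0.04 (95% interval -0.15 to 0.22; limma, adjusted p = 0.787). FASTKD5, a gene of mitochondrial RNA processing, shares 132 exonic bases with it on the same strand. FASTKD5 stood at 15.1 to 16.1 FPKM in the controls and 13.5 to 14.4 FPKM in the knockouts and did not pass (log2 value -0.15; limma, adjusted p = 0.152).

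WDSUB1 joins WD repeats and a SAM domain to its U-box (minus strand of chromosome 2, 159235793 to 159286799). It measured 6.42, 5.21 and 6.76 FPKM in the controls and 4.54, 5.04 and 4.77 FPKM in the knockouts. Each knockout library was below each control library, control 2 only by a small step. The mean was 78.0% of control, and the log2 value of -0.30 (95% interval -0.51 to -0.08) missed the threshold (limma, adjusted p = 0.0522). It passed with the replicate number as a block (adjusted p = 0.0480), on TPM values (0.0297), with array weights (0.000123), without control 2 (0.0124) and without control 3 (0.0344). After each library was corrected for the GC content and length of genes, WDSUB1 stood at -0.078 (limma, adjusted p = 0.470, or 0.516 when blocked by replicate).

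**Figure D2:**
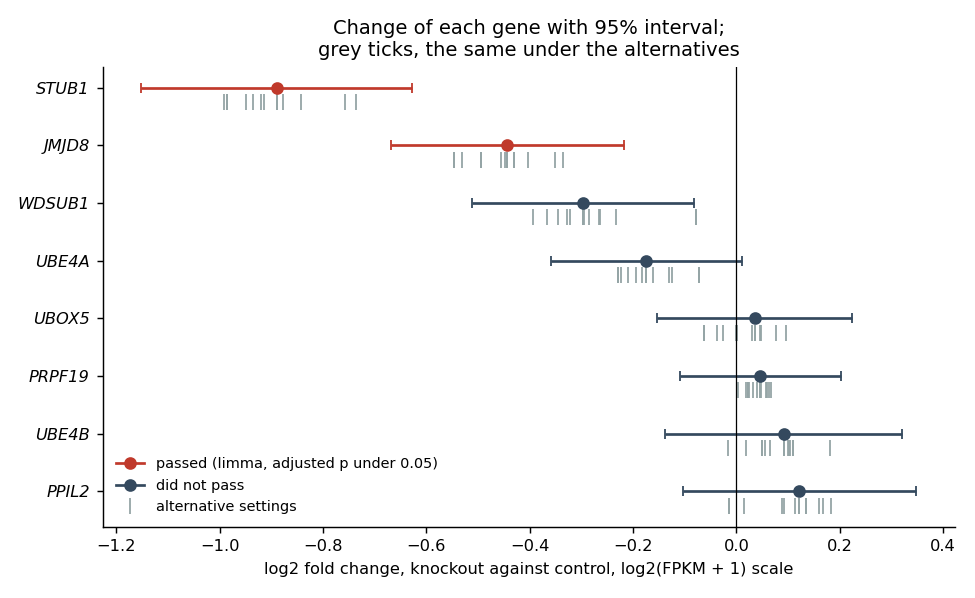
Log2 fold change of each gene, knockout against control, on the log2(FPKM + 1) scale (points, limma estimates; bars, 95% intervals; grey ticks, the same value under the 14 alternatives). STUB1 (-0.89) and JMJD8 (-0.44) passed, and of the other 6 genes only WDSUB1 (-0.51 to -0.08) has an interval without 0.

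Ordered by level, the control cells held PRPF19 (109.6 FPKM), STUB1 (44.1), JMJD8 (35.8), UBE4B (8.85), UBE4A (8.24), PPIL2 (8.23), WDSUB1 (6.13) and UBOX5 (3.12). Among neighbours in this order, STUB1 and JMJD8 overlapped in range, as did UBE4B with UBE4A and UBE4A with PPIL2. In the knockout cells JMJD8 (25.9 FPKM) stood above STUB1 (23.2 FPKM), with ranges that overlapped, and PPIL2 (9.002 FPKM) above UBE4A (7.19 FPKM), with ranges that did not.

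Together the 7 ligases summed to 183, 190.5 and 192 FPKM in the controls and 167, 176 and 166 FPKM in the knockouts. The knockout sums were all lower. With STUB1 left out the sums overlapped, at 144 ± 4.84 FPKM in the control and 147 ± 4.27 FPKM in the knockout (SD, n = 3 each; exact two-sided permutation p = 0.5, which does not use the pairing). Within same-numbered pairs the knockout sum was higher in 3 of 3, by 0.7890, 2.997 and 4.284 FPKM, and this was not tested. STUB1 made up 20.7%, 21.98% and 27.5% of the family's FPKM in the controls and 12.9%, 14.0% and 13.9% in the knockouts. The mean difference was -9.77 percentage points, again with no overlap (exact two-sided permutation p = 0.1). PRPF19 accordingly made up 58.2 ± 1.87% in the control and 66.6 ± 0.151% in the knockout (SD, n = 3 each).

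JMJD8 fell together with STUB1. JMJD8 (ENSG00000161999, minus strand of chromosome 16, 681671 to 684528), which encodes a JmjC-domain protein of the endoplasmic reticulum, measured 31.4, 35.3 and 40.6 FPKM in the controls and 24.5, 27.9 and 25.4 FPKM in the knockouts. The groups did not overlap, and the libraries of the control group kept the order they had for STUB1. The mean was 72.5% of control, with a log2 value of -0.44 (95% interval -0.67 to -0.22; limma, adjusted p = 0.0142). The call was lost if knockout 1 was left out (adjusted p = 0.0630) and likewise knockout 3 (0.0576).

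The fall of STUB1 was the larger. The ratio of STUB1 to JMJD8 in FPKM was 1.205, 1.186 and 1.298 in the controls and 0.8832, 0.8862 and 0.9105 in the knockouts. STUB1 was thus the higher of the pair in every control library and the lower in every knockout library. The log2 ratio, taken after adding 1 to each FPKM value, was 0.290 ± 0.0691 in the control and -0.156 ± 0.0231 in the knockout (SD, n = 3 each, exact two-sided permutation p = 0.1).

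In GENCODE 29 the exons of STUB1 and JMJD8, on opposite strands, have 983 bases in common. These are 42.4% of the exonic bases of STUB1 and 37.4% of those of JMJD8. Of the shared bases 436 are coding in STUB1, which has 960 coding bases, and 67 are coding in JMJD8. Of 16 annotated JMJD8 transcripts, 13 overlap the STUB1 gene and 7 reach its coding sequence. The labels' library protocol names no step that marks strand, and the counting setting is not given in the sources used here. Reads from the common bases may therefore have been counted for the pair jointly, for either, or for neither. What they contribute to the values of STUB1 and JMJD8 was not tested. This holds for the STUB1 level that remained in the knockout and for the ratio of the pair as well.

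**Figure D3:**
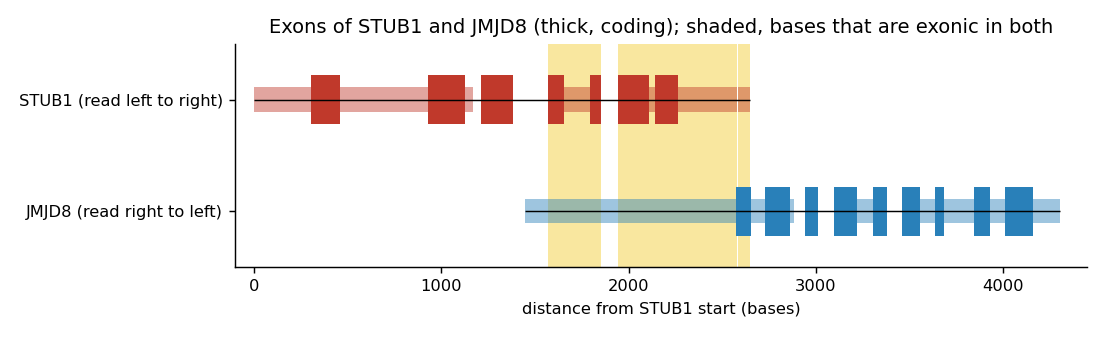
Exons of STUB1 and JMJD8 drawn to scale as distance from the STUB1 start in bases (thin boxes, exons merged over all annotated transcripts; thick boxes, coding stretches; shading, the 983 bases exonic in both). The shading covers the 3' part of STUB1, 436 of its coding bases included, and the part of JMJD8 that lies inside STUB1.

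Other genes around STUB1 did not share the fall. Within 10 Mb of its start 136 genes were tested besides JMJD8, of which 16 rose and 0 fell by limma with adjusted p. Over all tested genes 9.58% rose and 13.3% fell. At an unadjusted p under 0.05, 32 of the 136 were higher and 3 lower. The most negative value, -0.23, was that of ZNF200, a zinc finger gene. The number that rose was 25 with the replicate block, 4 without knockout 2, 5 without knockout 3, 6 without control 1 and 36 without control 3. Some genes fell under other settings: 4 without control 3, 8 with array weights, where 52 rose, and 11 once GC content and length were corrected for, where 10 rose.

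RHBDL1, a rhomboid protease gene, starts at -4.56 kb from the STUB1 start. It was under the filter, at 0.624, 0.636 and 0.929 FPKM in the controls and 1.05, 1.06 and 1.16 FPKM in the knockouts. RHOT2, which encodes a GTPase of the mitochondrial outer membrane, comes next and measured 26.2, 29.1 and 30.8 FPKM in the controls and 35.6, 38.8 and 36.4 FPKM in the knockouts. All knockouts were above all controls for both genes, where 45.6% of all tested genes had no overlap between groups. With no filter on low values RHBDL1 had a log2 value of 0.28 (limma, adjusted p = 0.0489). RHOT2 rose (log2 value 0.36; limma, adjusted p = 0.0142), a call lost after the GC and length correction (0.15, adjusted p = 0.0616), without knockout 2 (0.0718), without knockout 3 (0.0590) and without control 1 (0.0605). WDR90, a WD-repeat gene beyond RHOT2, rose from 7.04 ± 1.25 to 9.66 ± 0.439 FPKM (SD, n = 3 each; log2 value 0.42; limma, adjusted p = 0.0254). That call was lost after the GC and length correction (0.15, adjusted p = 0.157), and without any 1 knockout library or control 1 (adjusted p between 0.0643 and 0.121). WDR24, a subunit of the GATOR2 complex on the JMJD8 side, had 3.31 ± 0.113 FPKM in the control and 4.03 ± 0.324 FPKM in the knockout and did not pass (log2 value 0.22; limma, adjusted p = 0.0642).

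Over the 24 other tested genes within 500 kb the median log2 value was 0.11. Of these, 7 were higher, 0 lower and 17 not passed, where 9.58% of all tested genes were higher and 13.3% lower. Unadjusted, 9 of the 24 were higher and 0 lower. The genes that rose besides RHOT2 and WDR90 were NME4, CCDC78, FBXL16, PIGQ and CAPN15, named after their values were seen. NME4, a mitochondrial nucleoside diphosphate kinase, had the highest value (0.80; limma, adjusted p = 0.000809) and, like CCDC78 (0.41, adjusted p = 0.00681), passed under all 14 alternatives. FBXL16 (0.40, adjusted p = 0.0144), PIGQ (0.37, 0.0170) and CAPN15 (0.36, 0.0328) did not pass without knockout 2 (limma, adjusted p = 0.0815, 0.0594 and 0.141) or knockout 3 (0.0626, 0.0567 and 0.0832) or control 1 (0.0506, 0.0608 and 0.0816). The number higher was 12 with array weights, 11 without control 3, and 2 without knockout 2, knockout 3 or control 1. After the GC and length correction the median was -0.076, with 3 higher and 3 lower (1 lower with the block).

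**Figure D4:**
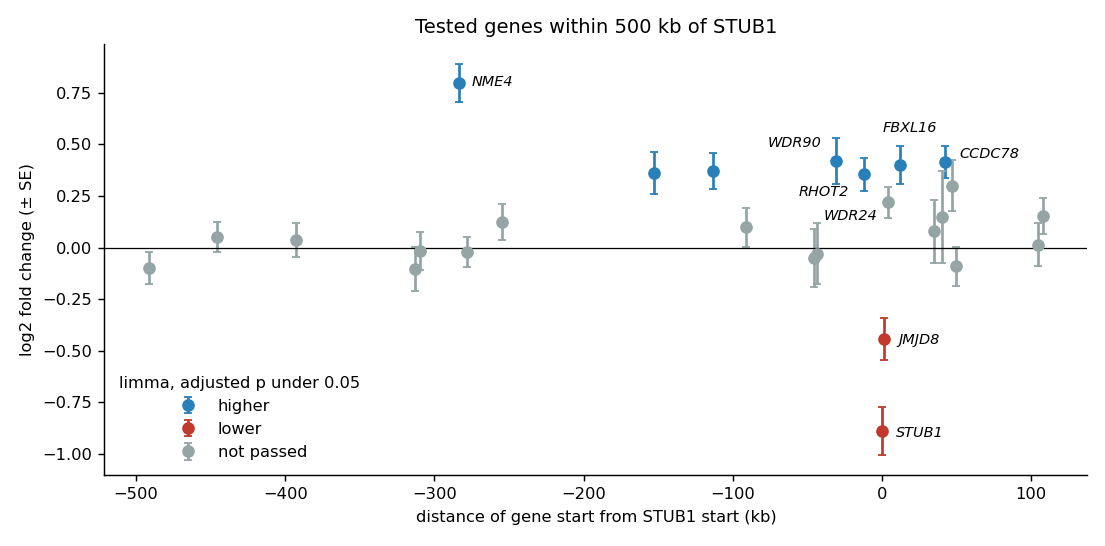
Log2 fold change (± SE) of the tested genes within 500 kb of STUB1 against the distance of their start from that of STUB1 in kb, coloured by the limma call. STUB1 and JMJD8 sit at -0.89 and -0.44, and the other 24 genes range from -0.10 to 0.80.

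Around the other U-box ligases most genes did not pass by limma. Among tested genes within 10 Mb the median log2 value was 0.05 for UBE4A, 0.11 for UBE4B, 0.13 for PRPF19, 0.07 for PPIL2, 0.02 for UBOX5 and 0.01 for WDSUB1. Of 222 genes around PRPF19 41 rose and 5 fell, of 144 around UBE4B 25 rose and 4 fell, and of 113 around PPIL2 18 rose and 0 fell. These are 18.5%, 17.4% and 15.9% higher, where 9.58% of all tested genes were. Around UBE4A 12 of 93 rose and 5 fell, and around UBOX5 8 of 63 rose and 5 fell. Around WDSUB1 1 of 34 rose and 6 fell, 17.6% lower where 13.3% of all tested genes were.

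Promoters are shown for JMJD8, which fell, and for WDSUB1 and UBE4A, the members with no overlap between groups that missed the threshold. RefSeq (GRCh38.p14) provided 300 bases around the start for 6 of the 8 genes, STUB1 and UBOX5 not among them. Capitals mark short motifs found on either strand: the GC box GGGCGG, the CCAAT box CCAAT, the ETS motif CCGGAAGT and the NRF1 motif. The windows are chr16:684285-684584 on the minus strand for JMJD8, chr2:159286654-159286953 on the minus strand for WDSUB1 and chr11:118359350-118359649 on the plus strand for UBE4A.
JMJD8: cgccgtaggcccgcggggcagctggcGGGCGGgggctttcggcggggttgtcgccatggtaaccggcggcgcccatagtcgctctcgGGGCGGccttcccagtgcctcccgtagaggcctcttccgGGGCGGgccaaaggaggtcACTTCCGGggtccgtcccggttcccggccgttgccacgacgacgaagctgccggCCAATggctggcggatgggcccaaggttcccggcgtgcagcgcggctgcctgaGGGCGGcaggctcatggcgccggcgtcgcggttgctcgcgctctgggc
WDSUB1: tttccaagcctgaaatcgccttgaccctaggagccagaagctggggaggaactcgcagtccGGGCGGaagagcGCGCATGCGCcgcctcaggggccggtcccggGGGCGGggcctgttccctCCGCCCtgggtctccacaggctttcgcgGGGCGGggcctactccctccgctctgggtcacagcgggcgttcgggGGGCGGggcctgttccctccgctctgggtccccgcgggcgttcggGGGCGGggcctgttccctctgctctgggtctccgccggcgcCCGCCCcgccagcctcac
UBE4A: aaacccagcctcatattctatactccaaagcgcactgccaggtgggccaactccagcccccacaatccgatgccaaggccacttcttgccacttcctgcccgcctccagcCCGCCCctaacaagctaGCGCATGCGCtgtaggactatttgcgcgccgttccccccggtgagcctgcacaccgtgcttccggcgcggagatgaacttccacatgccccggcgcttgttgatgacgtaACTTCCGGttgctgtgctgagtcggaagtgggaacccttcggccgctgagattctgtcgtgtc
JMJD8 held 4 GC boxes, 1 CCAAT box and 1 ETS motif. WDSUB1 held 7 GC boxes and 1 NRF1 motif. UBE4A held 1 GC box, 1 ETS motif and 1 NRF1 motif. Of 35116 RefSeq promoters of this length, 44.95% held a GC box, 34.6% a CCAAT box, 4.14% the ETS motif and 1.24% the NRF1 motif. The marked motifs do not overlap each other. Of the members that did not pass with overlapping groups, UBE4B held 2 GC boxes and 1 CCAAT box, PRPF19 2 CCAAT boxes and PPIL2 1 ETS motif. The heat shock element core GAANNTTC was found in 0 of the 6 windows and in 6.77% of all promoters. A match is a description of the letters and not a bound site.

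Other ligase families were called about as often as all genes. Of 28 HECT ligases, which pass ubiquitin through a cysteine of their own, 24 were tested, of which 4 rose, 1 fell and 19 did not pass (20.8% called, median 0.07). HACE1, a ligase of the small GTPase RAC1, fell from 2.67 ± 0.258 to 1.43 ± 0.121 FPKM (SD, n = 3 each; log2 value -0.60; limma, adjusted p = 0.00125). HERC2, a giant ligase of the DNA damage response with pseudogene copies that could share its reads, rose from 4.82 ± 1.11 to 8.04 ± 0.406 FPKM (log2 value 0.65; limma, adjusted p = 0.00813), a call lost without knockout 2 (0.0643). HERC6, an interferon-inducible relative, rose from 1.16 ± 0.306 to 1.90 ± 0.0414 FPKM (limma, adjusted p = 0.0156), a call lost without knockout 1 (0.0586) and without knockout 2 (0.0808). UBE3A and UBE3B, named after their values were seen, rose as well (log2 values 0.38 and 0.39), and neither passed without knockout 1 (limma, adjusted p = 0.0759 and 0.0976) or knockout 3 (0.0701 and 0.0893), nor UBE3B without knockout 2 (0.131) or control 1 (0.0532).

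Of 14 RING-between-RING ligases, which also carry ubiquitin on a cysteine, 12 were tested, of which 2 rose, 1 fell and 9 did not pass (25% called, median 0.04). RNF217 fell from 2.74 ± 0.155 to 1.68 ± 0.105 FPKM (SD, n = 3 each; log2 value -0.48; limma, adjusted p = 0.00178). RBCK1 and RNF31, subunits of the linear ubiquitin chain assembly complex, rose by 0.27 and 0.33 on the log2 scale (limma, adjusted p = 0.0275 and 0.0388). Each of these 2 calls was lost under 8 of the 14 alternatives, leaving out knockout 1 (adjusted p = 0.0677 and 0.0841), knockout 2 (0.0953 and 0.141), knockout 3 (0.0998 and 0.126) or control 1 (0.104 and 0.0733) among them, and for RBCK1 control 2 (0.0593). TRAF3IP2, NOSIP and RTF2, which carry domains related to the U-box, had log2 values of -0.14, -0.09 and -0.04 and did not pass (limma, adjusted p = 0.261, 0.664 and 0.720).

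Several of these genes lie in stretches of chromosome where many neighbours moved the same way. Within 10 Mb, 90.7% of tested genes around HACE1 and 78.6% around RNF217, both on chromosome 6, were lower by limma, with median log2 values of -0.58 and -0.51. Around HERC2 on chromosome 15, 69.0% were higher, with a median of 0.32, and around UBE3A on the same chromosome 74.1%, with a median of 0.37. A change of such a stretch and a change of the single gene cannot be told apart.

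Genes that work with STUB1 were also called about as often as all genes when both directions were counted. Every call among the chaperones, cochaperones, E2 enzymes and deubiquitinases below was lower in the knockout. Of all tested genes 9.58% were higher and 13.3% lower. Whether the lists differ from this in direction was not tested. Of 18 chaperones and cochaperones, 0 rose, 4 fell and 14 did not pass (22.2% called, median -0.10). HSP90AA1, the inducible HSP90, fell from 1006 ± 37.1 to 695 ± 38.4 FPKM (SD, n = 3 each; log2 value -0.53; limma, adjusted p = 0.00326). BAG2, a cochaperone known to inhibit STUB1, fell from 11.03 ± 0.765 to 8.05 ± 0.554 FPKM (log2 value -0.41; limma, adjusted p = 0.00821). Both passed under all 14 alternatives. BAG2 lies on chromosome 6, where 18.5% of 27 tested genes within 10 Mb were lower and 0 higher, with a median of -0.10. Around HSP90AA1 1.27% of 79 were lower and 12.7% higher. HSPA1A and HSPA1B, the stress-inducible HSP70 pair, are nearly the same in sequence and their reads may be split between them. They fell by 0.37 and 0.33 on the log2 scale (limma, adjusted p = 0.0185 and 0.0426). Neither passed without knockout 1 (0.0810 and 0.152), knockout 2 (0.0580 and 0.0740) or knockout 3 (0.0622 and 0.103), nor HSPA1B without control 1 (0.0879).

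Of 14 E2 enzymes and deubiquitinases, 0 rose, 3 fell and 11 did not pass (21.4% called, median -0.12). UBE2E1, an E2 enzyme, fell from 44.8 ± 4.95 to 32.8 ± 1.96 FPKM (SD, n = 3 each; log2 value -0.43; limma, adjusted p = 0.0110), a call lost without knockout 2 (0.0685). UBE2D1, an E2 enzyme that STUB1 uses in the test tube, fell from 22.7 ± 3.22 to 16.0 ± 2.09 FPKM and UBE2E2 from 5.88 ± 0.480 to 4.59 ± 0.143 FPKM (limma, adjusted p = 0.0218 and 0.0252). Both lost their calls after the GC and length correction (0.0617 and 0.0627) and without knockout 2 (0.103 and 0.0954), UBE2E2 also without knockout 1 (0.0741), knockout 3 (0.0867) or control 1 (0.10). Within 10 Mb of UBE2D1 29.6% of 27 tested genes were lower and 0 higher, with a median of -0.08. Around UBE2E1 18.9% were lower and around UBE2E2 20.0%.

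Of 18 genes whose proteins are reported as STUB1 substrates, 12 were above the filter, of which 0 rose, 3 fell and 9 did not pass (25% called, median 0.04). IFNGR1, a chain of the interferon gamma receptor, fell from 59.5 ± 2.07 to 35.8 ± 1.69 FPKM (SD, n = 3 each; log2 value -0.72; limma, adjusted p = 0.000342). It lies on chromosome 6, with 83.3% of its neighbours within 10 Mb lower and a median of -0.53. HIF1A, the oxygen-regulated transcription factor, fell from 96.6 ± 8.28 to 73.8 ± 5.75 FPKM (limma, adjusted p = 0.0173). Its call was lost after the GC and length correction (0.0689) and without knockout 2 (0.0868), knockout 3 (0.0673) or control 1 (0.0649). Within 10 Mb of HIF1A 17.4% of 92 tested genes were lower and 2.17% higher, with a median of -0.12.

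Of 18 partners of PRPF19 in splicing, 1 rose, 3 fell and 14 did not pass (22.2% called, median -0.11). EFTUD2, a spliceosomal GTPase, fell from 41.8 ± 5.04 to 29.01 ± 0.550 FPKM (SD, n = 3 each; log2 value -0.51; limma, adjusted p = 0.00571), on a stretch of chromosome 17 where 50.0% of 200 neighbours fell and the median was -0.26. AQR, an intron-binding helicase, rose from 7.58 ± 1.32 to 11.1 ± 0.891 FPKM (limma, adjusted p = 0.0156) and did not pass without knockout 1 (0.0667) or knockout 2 (0.0609). CWC15 and BCAS2, both subunits of the Prp19 complex or its close partners, fell by 0.35 and 0.30 on the log2 scale (limma, adjusted p = 0.0403 and 0.0429). After the GC and length correction neither passed (0.114 and 0.605), nor without any 1 knockout library or control 1 (adjusted p between 0.0546 and 0.166). Within 10 Mb of CWC15 21.4% of 42 tested genes were lower and 2.38% higher, with a median of -0.11. Around BCAS2 9.33% of 75 were lower and 10.7% higher.

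Of 7 spliceosomal cyclophilins, relatives of PPIL2, 0 rose, 1 fell and 6 did not pass (14.3% called, median -0.13). PPIL4 fell from 22.1 ± 0.278 to 12.5 ± 0.253 FPKM (SD, n = 3 each; log2 value -0.78; limma, adjusted p = 0.000156), on chromosome 6 where 87.8% of its neighbours within 10 Mb fell and their median was -0.54. PPWD1 and CWC27 had log2 values of -0.13 and -0.10 and did not pass (limma, adjusted p = 0.200 and 0.259).

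Of 15 factors of VCP, the segregase that pulls ubiquitinated proteins apart and with which UBE4A and UBE4B are known to work, 0 rose, 2 fell and 13 did not pass (13.3% called, median -0.08). NPLOC4, a cofactor that brings ubiquitin chains to VCP, fell from 17.6 ± 2.05 to 13.2 ± 0.357 FPKM (SD, n = 3 each; limma, adjusted p = 0.0181), on chromosome 17 with 67.9% of its neighbours lower and a median of -0.38. NGLY1, which strips sugars from misfolded glycoproteins, fell from 7.73 ± 1.09 to 5.68 ± 0.198 FPKM (limma, adjusted p = 0.0215). Neither passed without knockout 1 (0.0620 and 0.0698), knockout 2 (0.0716 and 0.0998) or knockout 3 (0.0801 and 0.0639), nor NPLOC4 without control 1 (0.0614). Within 10 Mb of NGLY1 22.2% of 36 tested genes were lower and 0 higher, with a median of -0.13. UBQLN4, a ubiquitin shuttle, missed the threshold at 0.24 on the log2 scale (limma, adjusted p = 0.0914).

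**Figure D5:**
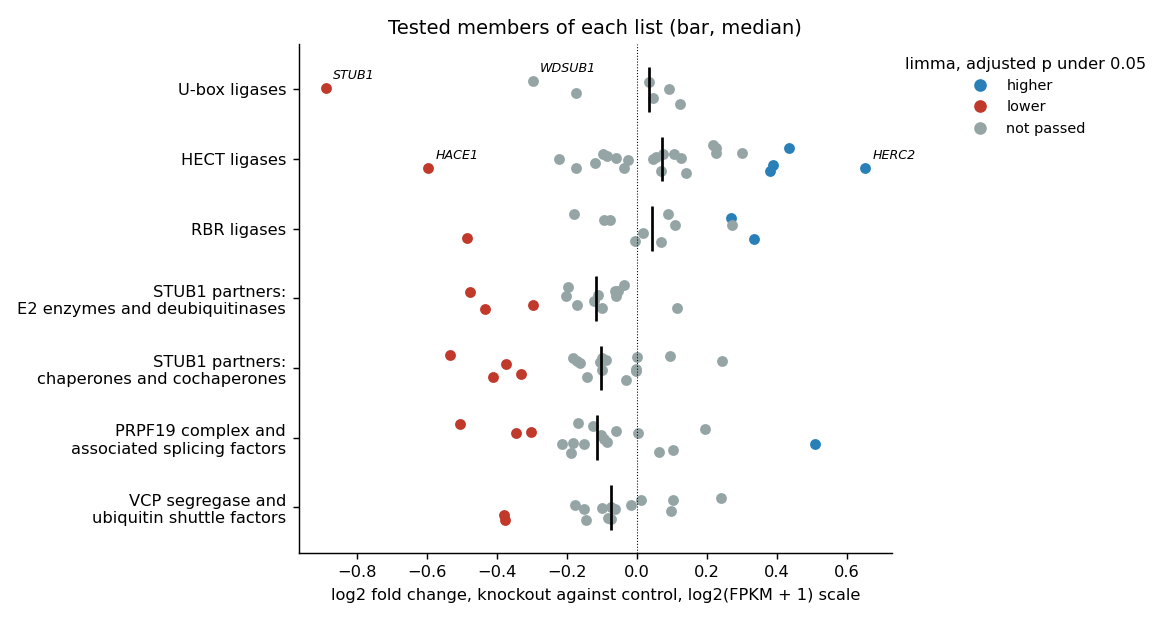
Log2 fold change of every tested gene in 7 of the lists (points, coloured by the limma call; vertical bars, list medians; points are spread vertically for sight only). STUB1 at -0.89 is the lowest point shown, and the list medians lie between -0.12 and 0.07.

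The genes most like STUB1 were taken, as a description, by Pearson's r of log2(FPKM + 1) over the 6 libraries among 11169 protein-coding genes. They were SENP3-EIF4A1, a readthrough locus that may share reads with EIF4A1 (r = 0.998), PHB1, the mitochondrial prohibitin (0.998), PSMC5, an ATPase of the proteasome (0.997), KRT8, a keratin of simple epithelium (0.996), and UBE3D, a ubiquitin ligase (0.996). SENP3-EIF4A1 itself did not pass (limma, adjusted p = 0.0723). It lies on chromosome 17 with PHB1 and PSMC5, while UBE3D lies on chromosome 6 and KRT8 on chromosome 12. Chromosomes 6 and 17 hold the stretches given above where many genes fell. Whether these genes lie inside such stretches was not tested. PHB1 measured 106, 109.9 and 131 FPKM in the controls and 75.3, 79.0 and 76.6 FPKM in the knockouts. Like STUB1, it was highest in control 3 and lowest in knockout 1. JMJD8 ranked 65 with r = 0.983, and 383 genes exceeded 0.95. The 6 points share 2 groups and their depth, and a difference between the groups alone gives a high r.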

How the data were processed

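Oligo(dT)-enriched RNA of 6 HaCaT libraries was sequenced, per the labels' protocols. The authors deposited FPKM values for 20014 Ensembl genes. Trimmomatic 0.36, HISAT2 2.0.5, Cufflinks, featureCounts 1.6.3, edgeR 3.6.3 and the build GRCh38.p13 are named in the submitters' processing notes without their roles. FPKM values are not counts, so no count test was run. Steps of the low values gave estimated library sizes of 45100000 to 52000000 reads, but 63.7% to 68.9% of them came within 0.15 of a whole read, so reads were not recovered and no counting intervals are given.

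Symbols came from a gene name table (19991 genes) or GENCODE 29 (23 genes), and positions, lengths and GC content from GENCODE 29 (19873 genes). Genes with a mean of at least 1 FPKM (11262) were tested on log2(FPKM + 1), a pseudocount of 1 that understates changes of low genes, with limma 3.58.1 in R 4.3.3 (intensity trend, Benjamini-Hochberg adjustment over all tested genes, threshold 0.05). The fit was also run on simulated data with independent normal noise in each gene and library. Those data hold no trend of a library with gene length or GC content. The run therefore does not show how the fit behaves with the trend seen in control 3. Further tools were matplotlib 3.10.9, scipy 1.17.1, numpy 2.4.6, pandas 2.3.3 and Python 3.11.15.

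The members and 13 comparison lists were chosen with earlier results of these data known. The rule for named genes took the 8 members, up to 3 genes of smallest p from each list, the 2 tested genes on each side of STUB1 and the 5 most correlated with it. A gene this rule takes is not reported here. Named outside the rule, after their values were seen, were genes that complete a count (LAMB3, PERP, UBE3A, UBE3B, HSPA1B, BCAS2, NME4, CCDC78, FBXL16, PIGQ, CAPN15), markers (TP63, KRT14, DCN, TYR), genes that overlap a member (YPEL1, FASTKD5, AP001267.1), and RHBDL1 and ZNF200 near STUB1. Replicate numbers recur in both groups, and same-numbered libraries deviated together (r = 0.375, 0.150 and 0.188 over genes), each above 0.1. The labels name no pairs, and differently numbered libraries were not compared in this way. Whether the numbers mark true pairs was thus not tested. The block and the same-numbered comparisons take them as pairs, and the main fit does not. Alternatives were a pseudocount of 0.1, no filter (16782 genes), TPM, median scaling, the block, array weights, a spline correction for GC content and length (11177 genes) with and without the block, and leaving out each library.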

Additional observations from a re-analysis of the deposited data

How the results depend on the processing

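STUB1 passed under all 14 alternatives (-0.99 to -0.74). The number of changed U-box ligases was 1, against 2 on TPM values, 2 under the replicate block, 3 under array weights and 1 to 3 with a library left out (2 without control 2, 3 without control 3). Apart from WDSUB1, the block changed no call among the 8 genes. JMJD8 ranged from -0.53 to -0.35 with a library left out. Over all tested genes 2579 changed (1079 higher and 1500 lower), 6437 with array weights, whose estimation stopped before its tolerance was reached, and 1030 (without knockout 2) to 4521 (without control 3) with a library left out. On TPM values 667 were higher and 1622 lower. Values near 0 changed sign: PPIL2 was -0.014 with array weights and -0.015 after the GC and length correction with or without the block, and UBOX5 was -0.037 and -0.062 there. With a library left out UBOX5 lay between -0.025 and 0.10 and UBE4B between -0.016 and 0.18, both lowest without control 3. On summed log2(FPKM + 1) the STUB1 share differed by -2.61 percentage points in place of -9.77. Among counts over the comparison lists and values of some single genes, 147 kept their direction and call. In the same tally 47 list counts moved beyond the range taken as the same, 7 came to pass and 9 changed sign. Among the main results 56 stayed the same, 12 moved and 2 grew weaker. The many lost calls of list genes and of genes near STUB1, given above with those genes, are not part of these tallies. The cause of these shifts was not tested. Precision is limited by 3 libraries in each group, and depth is known only as an estimate.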
